A study of Homo sapiens with 20 samples.

Results

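The genome-wide POU2AF1 binding regions of MM1.S were compared with those of NCI-H929, both established multiple myeloma cell lines, in vehicle-treated cells. The members were all regions on chromosomes 1 to 22 and X in the DMSO peak lists made with the POU2AF1 antibody, 36603 in MM1.S and 29817 in NCI-H929. Together these are 66420 of the 562708 regions on those chromosomes in the 20 ChIP-seq lists of the series, which otherwise hold AU-15330-treated cells, IRF4 in the same lines, and POU2F3 or HA-tagged proteins in the small cell lung cancer lines NCI-H526 and NCI-H1048. A region was called shared when it had at least 1 base in common with a region of the other line, and line-only otherwise. Each line contributed 1 library per antibody and condition, so there were no replicates, no test between the lines could be made and no p-value is given; the 95% exact (Clopper-Pearson) intervals on shares cover counting precision only, and regions are not replicates. Both lines were grown in RPMI medium and given DMSO, the vehicle, and the medium of NCI-H929 alone held 2-mercaptoethanol. Their labels name no genetic change. A second readout came from the same lines given AU-15330, a degrader of the mSWI/SNF chromatin remodelling ATPases, at 1 µM for 4 to 6 h by the labels.

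POU2AF1 (also BOB1 or OCA-B) is a B-lineage coactivator without a classical DNA-binding domain. It docks on the POU domains of the octamer-binding factors POU2F1 (OCT1) and POU2F2 (OCT2), contacts the DNA of the octamer itself, and is best known from immunoglobulin promoters and enhancers and from the germinal centre. IRF4 is the interferon regulatory factor on which plasma cells and myeloma cells depend; it binds interferon-type repeats of GAAA, and composite elements with ETS or AP-1 factors. As background to the comparison, MM1.S carries an immunoglobulin heavy chain translocation to MAF and makes lambda light chains, while NCI-H929 carries one to the NSD2 and FGFR3 locus on the short arm of chromosome 4 and makes kappa light chains.

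The sequences that follow show what POU2AF1 summits outside promoters looked like in each class. They are among the regions of highest level (in MM1.S for shared ones) that hold the named pattern within 50 bases of the summit and whose central 31 bases occur once in the genome (hg38, plus strand, 81 bases centred on the pattern, pattern in capitals), and they were chosen after their values were seen. Level is the summit pileup divided by the background pileup of its library. The first 4 hold the octamer (ATTTGCAT or its reverse complement), with at least 1 from each class.
PEX5L intron, shared, chr3:179956620-179956700: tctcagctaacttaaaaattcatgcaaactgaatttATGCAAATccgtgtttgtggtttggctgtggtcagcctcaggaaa
SMCO1 nearest, MM1.S only, chr3:196518111-196518191: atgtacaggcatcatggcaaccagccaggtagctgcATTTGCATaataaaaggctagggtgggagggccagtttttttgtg
MEF2D intron, NCI-H929 only, chr1:156491760-156491840: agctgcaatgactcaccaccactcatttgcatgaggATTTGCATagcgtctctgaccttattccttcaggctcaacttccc
IER2 nearest, NCI-H929 only, chr19:13163013-13163093: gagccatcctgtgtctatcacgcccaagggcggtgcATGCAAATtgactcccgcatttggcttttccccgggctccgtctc
The PEX5L region had a level of 45.9 in MM1.S against 10.7 in NCI-H929. The MM1.S-only region near SMCO1 had a level of 28.5, and the NCI-H929-only regions at MEF2D and IER2 had levels of 56.9 and 39.4. The MEF2D sequence holds a second octamer just before the capitals. Of these 4 regions, the shared one lay under an IRF4 region in both lines, the IER2 region under an IRF4 region of NCI-H929 alone, and the other 2 under none.

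The next 7 sequences hold an ETS-IRF composite element (EICE, GGAA and GAAA with any 2 bases between), an AP-1 site (TGANTCA) or the core of the MAF recognition element (TGCTGAC). Unlike the octamer examples, they were picked only among regions under an IRF4 region of their own line, or of both lines for shared regions. That overlap was therefore set by the choice, and only the other line's IRF4 at line-only regions was free. With this choice, 5 lay under an IRF4 region of both lines, the SEPTIN9 region under one of MM1.S alone and the CD5L region under one of NCI-H929 alone.
NUP160 nearest, EICE, shared, chr11:47899983-47900063: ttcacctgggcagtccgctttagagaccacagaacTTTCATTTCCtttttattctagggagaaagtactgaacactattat
TMEM106B nearest, EICE, MM1.S only, chr7:12257807-12257887: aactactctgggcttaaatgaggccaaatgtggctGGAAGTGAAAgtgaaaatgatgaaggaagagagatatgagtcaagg
PRRX1 nearest, EICE, NCI-H929 only, chr1:170618599-170618679: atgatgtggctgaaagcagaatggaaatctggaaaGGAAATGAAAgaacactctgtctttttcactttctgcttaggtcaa
FASLG nearest, AP-1, shared, chr1:172746493-172746573: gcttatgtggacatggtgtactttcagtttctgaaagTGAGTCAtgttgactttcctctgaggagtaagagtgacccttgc
SEPTIN9 intron, AP-1, MM1.S only, chr17:77325063-77325143: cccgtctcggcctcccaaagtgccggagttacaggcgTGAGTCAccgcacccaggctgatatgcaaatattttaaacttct
CD5L intron, AP-1, NCI-H929 only, chr1:157832462-157832542: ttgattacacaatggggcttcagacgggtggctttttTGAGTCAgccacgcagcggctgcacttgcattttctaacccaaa
TCN2 intron, MAF core, MM1.S only, chr22:30609458-30609538: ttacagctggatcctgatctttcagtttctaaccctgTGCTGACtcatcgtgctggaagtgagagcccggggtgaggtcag
The NUP160 region had a level of 36.6 in MM1.S and 12.0 in NCI-H929, and the FASLG region 34.8 and 65.0. The line-only regions had levels of 17.4 near TMEM106B and in TCN2, 21.4 near PRRX1, 23.6 in SEPTIN9 and 26.96 in CD5L. The SEPTIN9 sequence also holds an octamer. In the TMEM106B sequence the EICE runs on into a further GAAA repeat, so an interferon-type match overlaps it, and in TCN2 the MAF core overlaps an AP-1 match.

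The libraries were of like depth. Every summit pileup could be recovered from the fold and p-value of the deposited lists, and the lowest local background was 2.24 tags per base in MM1.S and 2.34 in NCI-H929, which corresponds to about 30.7 × 10⁶ and 31.9 × 10⁶ tags over a genome of 2.7 Gb. Median region widths were 329 and 309 bases and median folds 4.62 and 4.50. Names in the lists place the libraries in separate numbered series, so that cell line and library preparation cannot be told apart. Copy number and genome sequence of the lines were not measured.

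The strong POU2AF1 regions were common to both lines and the weak ones were mostly particular to a list. Of the MM1.S regions 43.97% were shared (16093; interval 43.5 to 44.5%), and of the NCI-H929 regions 54.6% (16268; 54.0 to 55.1%). After merging, 49865 stretches were covered by either list, of which 31.7% were covered in both, 41.1% in MM1.S only and 27.2% in NCI-H929 only. In the top 20% of each list by fold 81.0% of MM1.S and 86.7% of NCI-H929 regions were shared, and in the lowest 20% the shares were 18.9% and 30.1%. Among the 1000 regions of highest fold, 37 were line-only in MM1.S and 56 in NCI-H929. Ranked by level in place of fold, 98.2% and 94.9% of the top 1000 were shared. The median fold was 5.47 for shared and 4.15 for MM1.S-only regions, and 5.08 against 4.06 in NCI-H929, where the median widths were 410 and 246 bases (490 and 266 in MM1.S). Line-only regions were not mainly edges of a binding domain seen in the other line. The median distance to the nearest region of the other line was 25.6 kb for MM1.S-only and 24.7 kb for NCI-H929-only regions, and 8.57% and 8.75% lay within 1 kb of one.

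**Figure D1:**
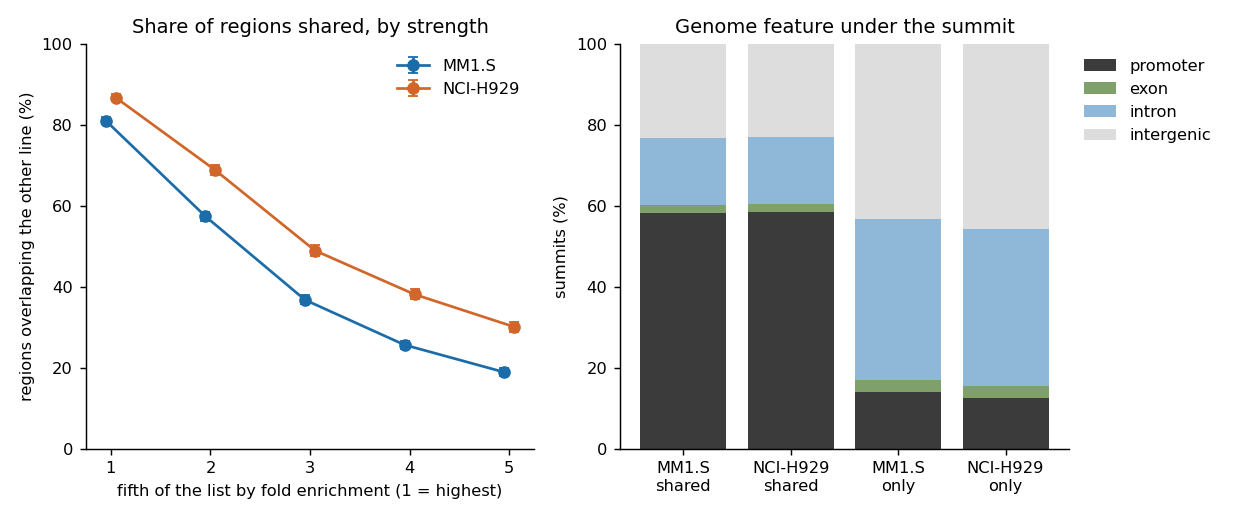
Left, the percentage of regions overlapping the other line in each 20% of the list by fold enrichment (1 is the highest), with 95% exact intervals, for MM1.S and NCI-H929; the share falls from 81.0% to 18.9% in MM1.S and from 86.7% to 30.1% in NCI-H929. Right, the genome feature under the summit as a percentage of shared and line-only regions of each list; promoters make up 58.3% and 58.5% of shared regions and 13.97% and 12.4% of line-only regions.

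Promoter regions were shared between the lines more often than other regions, though 6710 of the 16093 shared MM1.S regions lay outside promoters. A summit within 1 kb of a protein-coding start site was found for 58.3% of shared regions of MM1.S (57.5 to 59.1%) and 58.5% of those of NCI-H929 (57.8 to 59.3%), against 13.97% of MM1.S-only (13.5 to 14.5%) and 12.4% of NCI-H929-only regions (11.885 to 13.004%). Line-only regions lay in introns (39.8% and 38.6%) and between genes (43.3% and 45.8%). Read the other way, 76.6% of the promoter regions of MM1.S and 85.0% of those of NCI-H929 were shared, while of intronic regions 24.6% and 33.7% were, and of intergenic regions 29.6% and 37.7%. Promoters of lncRNA genes stood between, with 53.5% and 63.2% shared. The gap was also present among regions of like fold: in the top 20% by fold 94.0% of promoter and 66.9% of intergenic MM1.S regions were shared, and in the lowest 20% 42.9% and 13.6%. In NCI-H929 the same shares were 96.4% and 74.5%, then 63.2% and 19.1%. Outside promoters the median distance to a start site was 26.8 kb for shared regions of either list, 36.0 kb for MM1.S-only and 43.3 kb for NCI-H929-only regions.

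At the 16093 shared regions the level was a little higher in MM1.S. The ratio of MM1.S to NCI-H929 had a median of 1.17 with quartiles of 0.893 and 1.505, and differed little between promoters (1.18) and intergenic regions (1.13). It was above 2 at 8.30% of shared regions and below 0.5 at 2.45%. Across these regions the levels had a Spearman correlation of 0.565 (n = 16093 regions, which share their libraries and are not independent), and 62.2% of summit pairs were within 100 bases. The widest differences were at promoters, in introns and between genes. They were taken from regions whose summit sequence in MM1.S occurs once in the genome, and were chosen after their values were seen. That limit applies to the summit sequence alone. Copies of the rest of each region were not counted, so an effect of copies on these differences was not tested. In MM1.S the level was higher at the promoter of CCL3L3, a chemokine (53.9 against 5.14), between genes at 113 kb from the nearest start, that of CNTNAP2 (36.1 against 5.99), at TRIM59 (52.2 against 8.99) and at GTF2B, a general transcription factor (41.9 against 7.27). In NCI-H929 it was higher at TMEM70 (122 against 13.8), at 55.1 kb from the start of CEP170 (41.1 against 5.35), at CEBPA, a myeloid transcription factor (36.4 against 6.69), in an intron of IL6R, the receptor of the myeloma growth factor IL-6 (38.9 against 8.91), and 2.08 kb from the start of MUC1 (36.8 against 6.69).

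Outside promoters the octamer was more frequent at POU2AF1 summits than in their surroundings in every class, and more frequent in shared than in line-only regions. Patterns were searched on both strands within 100 bases of the summit, and in windows 2 kb to either side that overlap no region. The octamer ATTTGCAT was present at 8.88% of shared summits in MM1.S (8.21 to 9.59%), which is 6.24 times the share in the flanks, and at 9.40% in NCI-H929 (7.02 times). It was present at 4.59% of MM1.S-only summits (4.28 to 4.90%, 2.59 times) and 6.23% of NCI-H929-only summits (5.80 to 6.68%, 3.25 times). At promoter summits the octamer was as rare as in the flanks or nearly so (1.15 to 1.96%, 1.07 to 1.61 times). The interferon-type repeat (ISRE, GAAA, any 2 bases and GAAA) was found at 8.75% of MM1.S-only (2.57 times the flanks) and 6.46% of NCI-H929-only summits (1.83 times). The EICE, which overlaps the ISRE in some matches, was at 4.58% and 2.77%, and the MAF core at 4.47% and 3.18%. The AP-1 site was the reverse, at 7.80% of MM1.S-only and 11.0% of NCI-H929-only summits. The RUNX site AACCACA was enriched in every class (9.76 to 15.0%, at least 2.58 times the flanks), as was the E-box CAGCTG (12.3 to 17.4%). The MEF2 pattern (CTA, any 4 bases and TAG) was not above the flanks by more than 1.18 times in any class.

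Shared promoter summits held other patterns. The GC box GGGCGG was at 61.2% of them in MM1.S and 62.1% in NCI-H929 (10.3 and 11.1 times the flanks), and the ETS site CCGGAAGT at 5.19% and 5.52% (50.4 and 45.0 times). Both were less frequent at line-only promoter summits, with the GC box at 44.6% and 51.2% and the ETS site at 2.23% and 1.48%. The CTCF pattern, which belongs to the insulator protein of that name, had the highest ratio to the flanks outside promoters, at 9.90% and 10.0% of shared summits (39.4 and 40.1 times), 6.47% of MM1.S-only and 4.21% of NCI-H929-only summits. The NF-kB pattern (GGGAA, any 3 bases and CC) stood at 2.74 to 4.25% outside promoters. CCAAT was below the flanks in every class (0.690 to 0.871 times). For scale, of 34961 RefSeq promoters (GRCh38.p14, 300 bases) the octamer is held by 1.77%, TTTGCAT by 4.45%, the ISRE by 3.58%, the EICE by 2.81%, AP-1 by 7.68%, the MAF core by 4.17%, RUNX by 4.28%, the E-box by 18.0%, CCAAT by 34.6%, the GC box by 45.0%, the ETS site by 4.14%, NF-kB by 6.90%, MEF2 by 2.70% and the CTCF pattern by 1.01%. Base composition went with the classes: the median GC content within 100 bases of the summit was 69.7% and 70.1% at shared promoters, 50.7% at shared summits outside promoters, and 43.3% and 45.3% at line-only summits outside promoters.

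**Figure D2:**
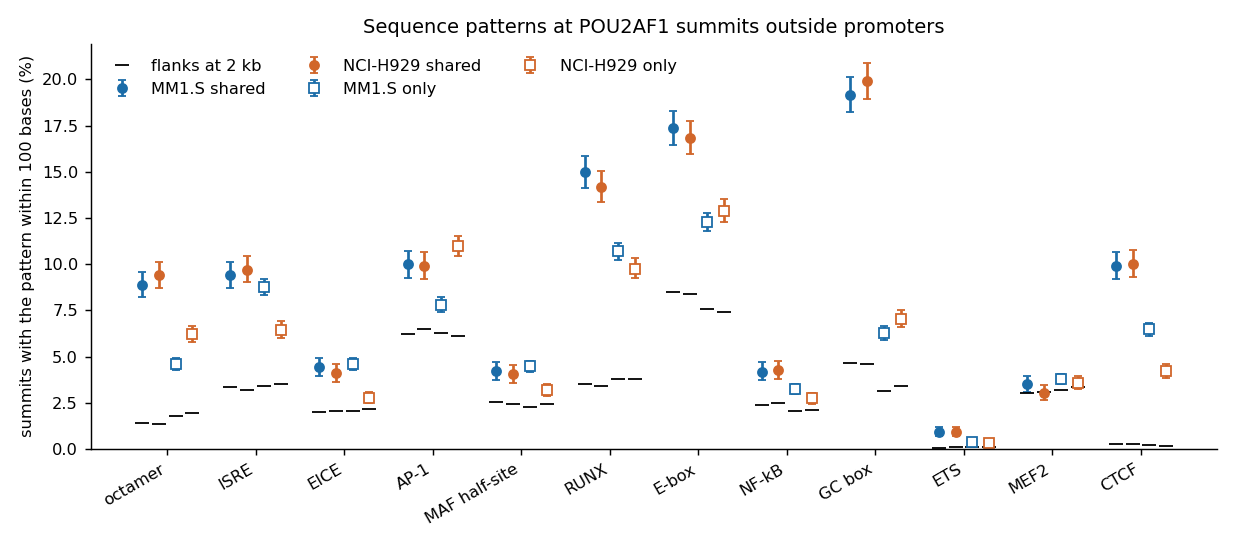
The percentage of POU2AF1 summits outside promoters with each pattern within 100 bases (points with 95% exact intervals; filled for shared, open for line-only regions; MM1.S in blue, NCI-H929 in orange), beside the same share in windows 2 kb away (black dashes). The octamer stands at 8.88% and 9.40% in shared and 4.59% and 6.23% in line-only regions, and AP-1 is higher in NCI-H929-only (11.0%) than in MM1.S-only regions (7.80%).

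IRF4 regions covered a larger share of shared than of line-only POU2AF1 regions in both lines. The IRF4 list of the same line overlapped 68.7% of shared and 33.1% of line-only regions in MM1.S (intervals 68.0 to 69.4% and 32.5 to 33.7%), and 91.7% of shared and 46.7% of line-only regions in NCI-H929 (91.3 to 92.1% and 45.9 to 47.6%). These IRF4 lists differ in size, with 33326 regions in MM1.S and 65174 in NCI-H929. With the NCI-H929 IRF4 list cut to the 33326 regions of highest fold, its shares became 63.3% and 30.99%, close to those of MM1.S. With the whole IRF4 lists, the gap was narrower among the strongest POU2AF1 regions, grouped by fold as for promoters. In the group of highest fold the shares were 78.8% and 61.1% in MM1.S, and 96.2% and 86.1% in NCI-H929. In the group of lowest fold they were 47.7% and 22.5% in MM1.S, and 84.0% and 33.3% in NCI-H929. Shared regions were also wider, and shares at like width were not counted. The shares moved with the settings: the MM1.S shared share was 47.002% with at least 50% of a region covered, and the NCI-H929-only share 64.9% with −log10 q of at least 5 in all lists. The line-only regions were unlike in the other line's IRF4. Of MM1.S-only regions 39.0% lay under an IRF4 region of NCI-H929, and 23.003% with the equal-sized list, whereas 10.9% of NCI-H929-only regions lay under an IRF4 region of MM1.S. IRF4 in neither line was found for 50.4% of MM1.S-only and 52.0% of NCI-H929-only regions, against 5.69% and 5.91% of shared ones.

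Patterns at the summits outside promoters went with IRF4. Where IRF4 of the same line was present, the ISRE was at 13.4% of MM1.S-only and 10.4% of NCI-H929-only summits, and without it at 6.52% and 3.46%. The EICE was at 7.93% of MM1.S-only summits with IRF4 and 3.45% of NCI-H929-only ones, and AP-1 was at 9.78% and 16.8%. RUNX was alike in both, at 16.5% and 15.8%. The octamer behaved otherwise: among shared regions outside promoters it was at 7.07% of MM1.S summits with IRF4 and 12.2% without, and at 8.59% and 15.0% in NCI-H929. Among NCI-H929-only regions this was not so, with 6.67% with IRF4 and 5.89% without. The CTCF pattern was also more frequent without IRF4, from 6.30% to 16.4% and from 8.502% to 20.4% in those shared regions.

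**Figure D3:**
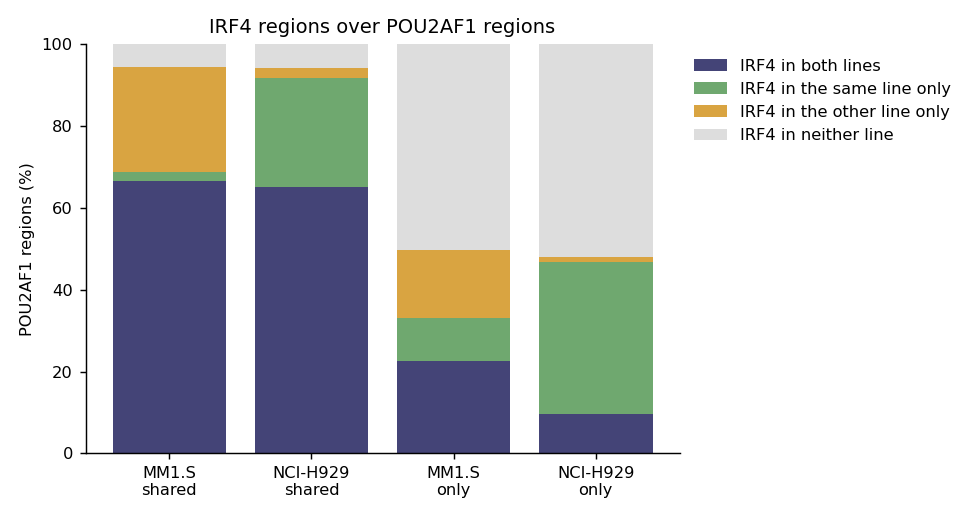
Stacked bars of the percentage of shared and line-only POU2AF1 regions of each line that lie under an IRF4 region (DMSO) in both lines, in the same line only, in the other line only or in neither. IRF4 in neither line makes up 5.69% and 5.91% of shared regions and 50.4% and 52.0% of line-only regions; the NCI-H929 IRF4 list holds 65174 regions and the MM1.S list 33326.

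Other lists that had no part in making the classes gave the same order. After AU-15330, 61.9% of the shared regions of MM1.S lay under a POU2AF1 region of that line, but 11.6% of MM1.S-only regions did. Part of this gap went with promoters, which are more common among shared regions. At promoters these MM1.S shares were 80.3% and 30.3%, and outside promoters 36.2% and 8.51%. In NCI-H929-only regions the share was 10.2%, with 34.4% at promoters and 6.77% outside them. The AU-15330 list of the other line overlapped 5.00% of MM1.S-only and 4.28% of NCI-H929-only regions. These AU-15330 lists are smaller than the DMSO lists, with 20677 regions in MM1.S and 16917 in NCI-H929. As they held few line-only regions even of their own line, the low shares say little about absence from the other line. The 5 DMSO lists of POU2F3, HA-tagged POU2F3 and HA-tagged POU2AF2 in the lung cancer lines together overlapped 68.7% and 68.4% of shared and 21.04% and 17.8% of line-only regions. At shared promoters that share was 90.1% and 89.6%, and at shared regions outside promoters 38.8% and 38.6%. At line-only promoters it was 53.1% and 49.97%, and at line-only regions outside promoters 15.8% and 13.2%. Line-only regions were also more often in repeated sequence: the 31 bases at the summit occurred more than once in the genome for 2.91% and 3.08% of shared, 6.26% of MM1.S-only and 10.4% of NCI-H929-only regions.

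On the level of genes the lines were closer than on the level of regions. Of 19962 protein-coding genes, 12870 (64.5%) had a region of both lines in the gene body or 10 kb upstream, 1784 (8.94%) had regions of MM1.S only, 1095 (5.49%) of NCI-H929 only, and 4213 had none. Single regions made most of the line-only genes, 68.9% in MM1.S and 74.0% in NCI-H929, and 23.4% and 18.995% of them had a region of the other line after AU-15330. An IRF4 region of the same line was present at 60.8% and 80.5% of line-only genes, and one of the other line at 71.6% and 26.8%. The NCI-H929 IRF4 list, with 65174 regions against 33326 in MM1.S, gave the higher share each time. Gene shares with IRF4 lists of equal size, and over all genes, were not counted. Of the genes bound in both lines, 850 (6.60%) had no shared region, so that each line used its own. Among those 12870 genes the highest level was higher in MM1.S for 68.1%.

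Genes of plasma cell identity were bound in both lines. Of 26 plasma cell genes 25 were bound in both, beside 64.5% of all protein-coding genes, and only GPRC5D, an orphan receptor of plasma cells, was called in MM1.S alone, with 2 regions of which the stronger had a level of 7.13. Levels were near each other at PIM2, a survival kinase (34.8 in MM1.S and 30.4 in NCI-H929), at TXNDC11 (40.1 and 33.0) and at CCR10 (22.3 and 19.3). In NCI-H929 the level was higher at IRF4 (30.4 against 18.7) and at TXNDC5, a disulfide isomerase of the secretory pathway (49.2 against 28.97). Level is not scaled to the local background, and the folds over it were low at both genes. At IRF4 the highest fold was 3.61 in NCI-H929 and 3.82 in MM1.S, the other way round from the level. At TXNDC5 it was 3.77 and 3.08. In MM1.S the level was higher at CXCR4, the bone marrow homing receptor (23.2 against 10.3), and at CD27, a TNF receptor family member (13.4 against 5.99). PRDM1, which encodes BLIMP1, the repressor that sets the plasma cell program, had 6 regions in MM1.S and 3 in NCI-H929 with levels of 20.1 and 20.97. XBP1, the transcription factor of the secretory cell, had 3 and 2 (levels 25.4 and 32.1, but highest folds 3.71 and 3.22). POU2AF1 itself had 7 and 8 regions, of which 2 and 3 were line-only, with levels of 14.3 and 20.1. CD38 had 6 and 2 regions, SDC1 5 and 3, CREB3L2 7 and 4, MZB1 4 and 2, TNFRSF17 (BCMA) 3 and 2, LMAN1 2 and 1, JCHAIN 2 and 1, BHLHA15 2 and 1, FCRL5 2 and 1, while ITGA4 had 1 and 3, DERL3 2 and 4, EAF2 1 and 2, and CD79A 1 and 1. At TENT5C and SLAMF7 both lines had regions and none of them was shared.

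Of 18 genes of earlier B cell stages 13 were bound in both lines, a share near that of all protein-coding genes (64.5%). MS4A1 (CD20) was called in MM1.S only (level 8.02), FCER2 (CD23) and SPIB, an ETS factor, in NCI-H929 only (6.85 and 4.71), and 2 genes had a region in neither. The levels in the genes bound in both were higher in MM1.S for 11 of 13, beside 68.1% over all genes bound in both, among them BCL6, the germinal centre repressor (21.4 against 10.7), PAX5 (16.9 against 10.7), CIITA, the activator of MHC class II genes (13.8 against 8.13), CR2 (16.05 against 5.56) and BCL11A (15.2 against 6.85). ETS1 and CD79B had a higher level in NCI-H929 (17.5 against 15.6, and 8.56 against 5.79). EBF1, BACH2, ID3, BTK and SPI1 had levels of 21.8, 14.3, 17.8, 11.1 and 8.47 in MM1.S and of 19.7, 11.1, 13.3, 9.84 and 6.42 in NCI-H929.

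Of 12 MHC class II genes 4 were bound in MM1.S only, beside 8.94% of all genes, with 4 bound in both, 1 in NCI-H929 only and 3 in neither. This count rested on the window: with 50 kb either side of the gene all 12 were bound in both lines, and within 2 kb of a start site 2 were bound in MM1.S only and 2 in NCI-H929 only. The genes of these small counts are named here after their values were seen. CD74, the invariant chain, had 2 regions in MM1.S, the higher with a level of 26.3, and HLA-DRA (11.1), HLA-DMB (7.13) and HLA-DOA (7.58) were likewise without a region in NCI-H929. HLA-DRB1 had a region of NCI-H929 only (5.14). At HLA-DMA, bound in both, the level was 30.8 in MM1.S and 15.4 in NCI-H929. Of 18 interferon-stimulated genes 11 were bound in both, a share near the 64.5% of all protein-coding genes. In MM1.S only there were 4 (OAS1, OAS3, MX2 and IFITM1, all with levels from 6.24 to 8.02), and in NCI-H929 only IFIT2 (5.56). The same all-gene shares, 64.5% for both lines and 8.94% for MM1.S only, stand beside the lists that follow. Among 22 IRF, Ikaros and AP-1 factors 19 were bound in both, while the promoters of IRF8, an interferon regulatory factor of B and myeloid cells (level 11.1), and BATF, a partner of IRF4 (8.47), had regions of MM1.S only. Of 18 NF-kB genes 17 were bound in both lines and TNFRSF13C, the BAFF receptor, in MM1.S only (7.58). Of 20 surface and adhesion genes 16 were bound in both and CD70 (13.4) and CCR2 (8.47) in MM1.S only.

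**Figure D4:**
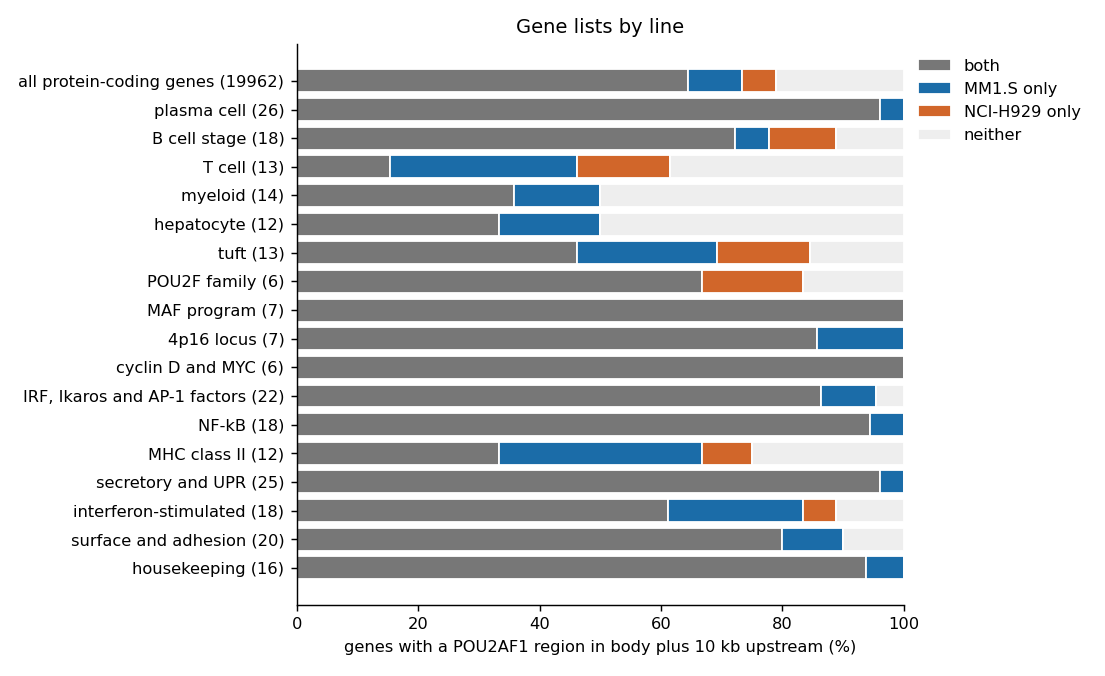
For all 19962 protein-coding genes and 17 gene lists, the percentage of genes with a POU2AF1 region in the body or 10 kb upstream in both lines, in MM1.S only, in NCI-H929 only or in neither; the number of genes is in parentheses. Plasma cell genes (25 of 26 bound in both) lie above all genes (64.5%), T cell genes (2 of 13) below, and MHC class II holds 4 MM1.S-only genes of 12.

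Of genes of other cell types, 2 of 13 T cell genes were bound in both lines, 5 of 14 myeloid, 4 of 12 hepatocyte and 6 of 13 tuft cell genes, beside 64.5% of all genes. With 50 kb either side the counts were 10, 13, 7 and 8, beside 83.7% of all genes, so the low counts of T cell and myeloid genes went with the narrower window. Line-only genes among them had levels between 5.35 (CD5) and 14.7 (CD4), both in MM1.S. Secretory and unfolded protein response genes (24 of 25 in both lines, DNAJC3 in MM1.S only) and housekeeping genes (15 of 16, TBP in MM1.S only) were bound as often as plasma cell genes, so a high share was not particular to the last. Of the plasma cell markers 26 of 26 had a region in MM1.S and 25 in NCI-H929. Binding at a gene is not expression, which was not measured here.

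Of the 6 octamer factors and coactivators 4 were bound in both lines, a share near the 64.5% of all protein-coding genes. With 50 kb either side all 6 were, beside 83.7% of all genes. POU2F1 had 5 regions in MM1.S and 7 in NCI-H929 (levels 28.97 and 33.4), and POU2F2 had 6 and 3, of which 4 and 1 were line-only (18.3 and 16.3), with the highest folds of this family, 11.4 and 9.31. POU2F3, the tuft cell member, had 2 regions in NCI-H929 (level 11.1) and none in MM1.S with DMSO, but 1 in MM1.S after AU-15330. POU2AF2 had 1 region in each line at separate places (6.69 and 5.99), and POU2AF3 had none with DMSO and 1 in each line after AU-15330.

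The genes known from the translocations of these lines did not split by line. All 7 genes of the MAF program were bound in both lines, beside 64.5% of all protein-coding genes. MAF itself had levels of 12.9 in MM1.S and 15.8 in NCI-H929. The MM1.S level was higher at the other 6, most clearly at CCND2, a cyclin that MAF induces (19.6 against 7.27), and ITGB7, an integrin (27.6 against 16.3). At CCND2 the 3 regions of MM1.S and the 1 of NCI-H929 did not overlap. CCR1 (17.4 and 15.8), DEPTOR (17.4 and 14.5), CX3CR1 (11.1 and 7.70) and NUAK1 (11.6 and 11.1) were nearer. In all these genes held 24 regions in MM1.S and 15 in NCI-H929. On 4p16 the higher levels were in MM1.S too, which does not carry that translocation: NSD2 27.2 against 9.41, NELFA 20.9 against 14.5, SLBP and TACC3, which share their strongest region, 27.6 against 15.0, and TMEM129 17.4 against 12.0. FGFR3 had a weak region in each line at separate places (8.02 and 8.56), and LETM1 one of MM1.S only (10.7). Of the cyclin D and MYC genes, all 6 were bound in both lines, beside 64.5% of all protein-coding genes. Levels were 15.6 in MM1.S and 16.3 in NCI-H929 at MYC, 14.3 and 16.7 at CCND1, and 12.9 and 14.5 at CCND3. At MYCL they were 13.4 and 10.3, and at MYCN 13.8 and 5.56. Because 68.1% of all genes bound in both lines had the higher level in MM1.S, a higher MM1.S level in a list is near the background.

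The genes with the strongest regions bound in 1 line only, by fold, were mostly not lymphoid genes. In MM1.S they were KDF1 (fold 14.5, promoter), DIRAS2 (13.9, promoter), FAAH, which degrades endocannabinoids (12.1, promoter), FAM135B (11.7), LENEP (11.6, at the promoter of a neighbour), BFSP2 (10.9), DMRT2 (10.7), SYK, the kinase of B cell receptor signalling (10.7, promoter), SNAP25 (10.7) and COL22A1 (10.2). All but COL22A1 lay under an IRF4 region of MM1.S, beside 61.1% of MM1.S-only regions in the group of highest fold. SYK had 2 MM1.S regions, the promoter one at a level of 32.5 (chr9:90801454-90801930), no region of NCI-H929 with DMSO and 1 after AU-15330. In NCI-H929 they included ZNF793 (14.1, promoter), ZMAT4 (11.8), LMAN1L (10.7, promoter), CFAP46 (10.1, promoter), NBPF15 (9.81, promoter), ATP2C2 (8.74), OR13C7 (8.69), DNAH10 (8.39) and ENSG00000289767 (8.26). All of these but LMAN1L lay under an IRF4 region of NCI-H929, beside 86.1% of NCI-H929-only regions in the group of highest fold. NBPF15 belongs to a family of near-identical copies and its summit sequence occurs 4 times in the genome. Its reads therefore cannot be placed with certainty.

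The genes with most regions of a single line were mostly long genes. In MM1.S, among others, SLC24A3 had 10 regions and none of NCI-H929, DGKB 9, MYO16 8, TMPRSS15, GPC5, SH3KBP1 and KLHL6 7, and PLCB4 and SLX4IP 6. KLHL6, which acts in germinal centre B cells, is the shortest of these at 68.2 kb. In NCI-H929 APBA2 had 8 regions, CDH4, SLC27A6 and TRPS1 7, COL23A1 and GABRG3 6, and NBPF15, MMP16, CNBD1 and EVL 5. IRF4 regions were more numerous in NCI-H929 at all 10 of its genes: CDH4 had 17 IRF4 regions against 2 in MM1.S and TRPS1, MMP16 and CNBD1 had 10 or 11 against none. The IRF4 list of NCI-H929 is also the larger, with 65174 regions against 33326, and these counts were not scaled for that. At the MM1.S genes the numbers went either way, with 8 against 3 IRF4 regions at SLC24A3, 8 against 2 at MYO16, but 5 against 6 at KLHL6 and 7 in both at GPC5. MYO16 and GPC5 are on chromosome 13, where NCI-H929 had few regions of any kind.

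Several of the strongest regions lay in repeated or chromosome-end sequence. The 5 shared regions of highest fold rank in both lists were in FAM230C on chromosome 13 (chr13:18211857-18212245, folds 29.6 and 30.97, with 23 genomic copies of the summit sequence), at 11.4 kb from the start of chromosome 9 (34.4 and 29.4), in PLXNB2 on chromosome 22 (26.6 and 24.9), among the heavy chain variable genes (26.0 and 23.4) and at 11.1 kb from the start of chromosome 16 (29.6 and 22.2). The strongest NCI-H929-only regions were at SNORD3B-2 and near the GRAPL gene on chromosome 17 (chr17:19063363-19064007, fold 29.6, and chr17:19111817-19112454, 25.2), at the heavy chain locus (22.97 and 19.1) and 36.9 kb from NBPF26 on chromosome 1 (19.7). The strongest MM1.S-only regions were weaker, in SNED1 (17.9), near NADK (16.1), in LINC02675 (15.7), 208 kb from LMLN (15.6) and at the KDF1 promoter (14.5). The summit sequence recurred for 6 of these 15 regions. The CTCF pattern was present in 6 of the 15, with up to 6 matches in 1 of them.

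The immunoglobulin loci were bound in both lines, and the kappa constant gene had a region in NCI-H929 only. Across the heavy chain locus (chr14:105583731-106875071) MM1.S had 24 regions, 7 of them line-only, and NCI-H929 39, with 23 line-only. The highest there were beside variable pseudogenes, at IGHVIII-38-1 with levels of 107 in MM1.S and 123 in NCI-H929, and at IGHVIII-26-1 with 128 in NCI-H929 and no region in MM1.S. Both of these hold repeated CTCF pattern matches and neither holds the octamer core TTTGCAT. An MM1.S-only region with a level of 63.7 lay 2.18 kb from IGHM, the mu constant gene. NCI-H929 had a region beside IGKC, the kappa constant gene (chr2:88856379-88858468), with a level of 34.2 but a fold over its local background of 3.69, and MM1.S had none there. The lambda constant gene IGLC1 had shared regions. At chr22:22895125-22895569 the MM1.S level was 21.4, and the NCI-H929 region over it had 24.0, with low folds of 3.08 and 2.53. A separate shared MM1.S region near IGLC1 (chr22:22895866-22896650) had a level of 24.96 and a fold of 3.80. At the lambda locus MM1.S had 35 regions and NCI-H929 22, of which 8 and 6 held the octamer core. The highest lambda region was the same in both (chr22:22559142-22559521, octamer core present, levels 39.7 and 29.1). An MM1.S-only region with an octamer lay next to IGLV2-14 (level 19.6), and NCI-H929-only regions with the octamer core lay next to IGKV3-15 and IGKV3-20 (7.70 and 5.99). Variable genes are near-identical copies and are rearranged in these cells, so placement of reads among them is uncertain.

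Line-only regions were spread unevenly over chromosomes. MM1.S had 20510 line-only regions and NCI-H929 13549, but on chromosome 13 MM1.S had 6.44 times as many as NCI-H929 (438 against 68), 2.86 times on chromosome 7, 2.58 times on chromosome 21 and 2.18 times on chromosome 3. On chromosome 14 the ratio was 0.241 (140 against 582) and on chromosome 8 0.873. The level ratio at shared regions went the same way: its median was 0.750 on chromosome 14 and 1.46 on chromosome 13, with chromosome 21 (1.56) above it and chromosome 7 (1.41) next. The local background at the summits moved likewise, with medians on chromosome 14 of 2.32 tags in MM1.S and 3.03 in NCI-H929, and on chromosome 13 of 2.68 and 2.34. The part of chromosome copies in these counts was not tested. Without chromosomes 13 and 14 the shared shares were 43.8% and 54.9%.

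**Figure D5:**
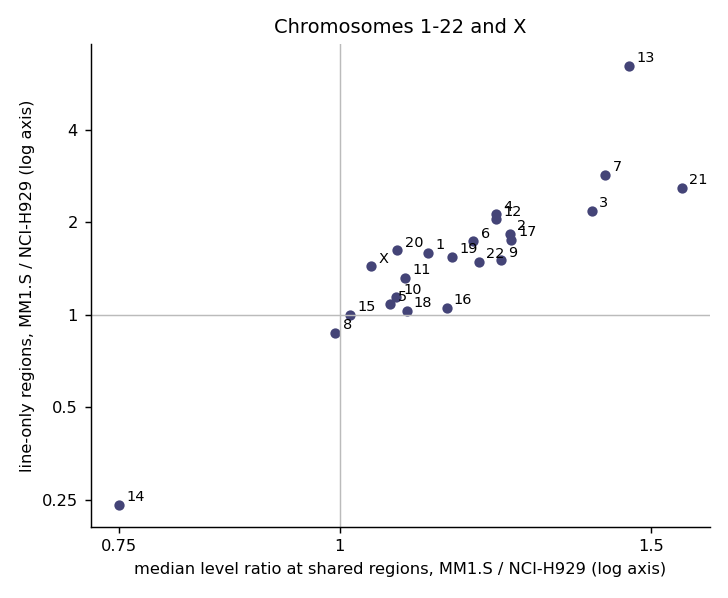
Each point is a chromosome. The horizontal axis (log scale) is the median ratio of the POU2AF1 level at shared regions, MM1.S over NCI-H929, and the vertical axis (log scale) the ratio of the numbers of line-only regions; chromosome 14 lies at 0.750 and 0.241, and chromosome 13 at 1.46 and 6.44.

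Line-only regions were also counted in windows of 1 Mb, and the genes named in each were picked after its gene list was seen. The windows with most MM1.S-only regions were on chromosome 12 (6000001 to 7000000, 31 MM1.S-only regions among 53, against 25 regions of NCI-H929), which holds 43 protein-coding genes, among them CD27, CD4, LAG3, LTBR and TNFRSF1A, and on chromosome 21 (33000001 to 34000000, 31 of 48, against 26), which holds the receptor genes IFNAR1, IFNAR2, IFNGR2 and IL10RB. The next were on chromosome 17 at SEC14L1, SEPTIN9 and TNRC6C (28 of 37), on chromosome 19 at KLF2, a factor of lymphocyte trafficking (28 of 46), and on chromosome 6 at TNFAIP3, the NF-kB inhibitor A20, and IFNGR1 (27 of 34, against 12). In NCI-H929 they were on chromosome 1 around MEF2D and SEMA4A (25 of 66), on chromosome 14 at the end of the heavy chain locus with JAG2 and GPR132 (25 of 40), again on chromosome 1 around NBPF11 (22 of 32) and the FLG and LCE genes of the epidermis (20 of 27), and on chromosome 19 around TCF3 and STK11 (20 of 67). The last was as rich in MM1.S-only regions (20). Windows with regions of a single line were rare, 91 for MM1.S and 66 for NCI-H929 of 2842.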

How the data were processed

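POU2AF1 ChIP-seq of MM1.S and NCI-H929 given DMSO, 1 library each, was analysed from the deposited peak lists. Per the labels and the study's methods, the authors trimmed reads (Trimmomatic 0.39), aligned them to GRCh38/hg38 with BWA, filtered them with Picard MarkDuplicates and SAMtools and called narrow peaks with MACS2 at q 0.05, with no control in the stated command, then removed blacklisted regions. The deposited columns are a display score, the fold enrichment of the summit over local background, and −log10 p and −log10 q. The score was not used. Summit pileup was recovered from fold and −log10 p, and level is pileup over the lowest local background of the library.

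Chromosomes 1 to 22 and X were used, which left out 0.389% of MM1.S and 0.881% of NCI-H929 regions. Overlap meant 1 base. Features and genes came from GENCODE 44, a promoter being 1 kb either side of a protein-coding start, and a gene was bound when a region lay in its body or 10 kb upstream. Scripts ran in Python 3.11.15 with pandas 2.3.3, numpy 2.4.6 and scipy 1.17.1, and were tested on simulated data. With 1 library per line no test was made. Named genes were those of 6 gene lists, the 10 genes per line with the strongest or the most regions and none of the other line, the 5 strongest regions of each class, the 5 densest windows per line and the immunoglobulin loci, with at most 4 examples for other lists. Names beyond this rule (line-only members of small lists, extremes of shared levels, printed sequences) were chosen after their values were seen. The members and lists were chosen with earlier results of these data known. LRMP was matched as IRAG2. A few genes and sequences that these rules select are not reported here.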

Additional observations from a re-analysis of the deposited data

How the results depend on the processing

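The shared share stayed higher in NCI-H929, and the promoter, octamer and same-line IRF4 shares stayed higher in shared than in line-only regions, under each alternative run for them. The order of the promoter share between the line-only classes (13.97% in MM1.S, 12.4% in NCI-H929) turned with equal list sizes. There was no replicate to leave out. No paired analysis was possible because each line has 1 library. The shared share (MM1.S, then NCI-H929) was 49.7% and 65.2% with −log10 q of at least 5 in both lists, 60.2% and 72.04% with that limit in the counted list only, 36.4% and 49.8% with at least 50% of the region covered, 36.6% and 44.9% with summits within 200 bases, 49.6% and 50.5% with the same number of strongest regions, and 46.8% and 56.5% when the AU-15330 list of the other line counted too. Among alternatives added after seeing the data, it was 44.8% and 56.5% without regions whose central 31 bases recur, and 43.8% and 54.9% without chromosomes 13 and 14. The gap between the lines' shares was thus smallest with lists of equal size. The promoter share of shared, MM1.S-only and NCI-H929-only regions was 64.9%, 23.1% and 21.5% at the stricter q, 59.1%, 13.3% and 15.2% with equal list sizes, and 60.8%, 16.997% and 15.005% with promoters of 2 kb. With 50% covered the line-only values were 19.2% and 16.1%. The octamer share was 6.23%, 2.81% and 4.11% within 50 bases of the summit and 10.99%, 6.30% and 9.52% at the stricter q, and 5.05% in MM1.S-only regions with equal list sizes.

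IRF4 of the same line at MM1.S shared, MM1.S-only, NCI-H929 shared and NCI-H929-only regions was 47.002%, 26.04%, 85.7% and 41.9% with 50% covered, and 52.1%, 34.7%, 89.8% and 64.9% at the stricter q in all lists. With IRF4 lists of the same size, also added later, NCI-H929 shared and NCI-H929-only regions had 63.3% and 30.99%, and MM1.S-only regions had NCI-H929 IRF4 at 23.003%. Genes bound in MM1.S only numbered 1178 with 50 kb either side, of which 613 were among the 1784. Of the 253 list entries, where a gene on several lists counts for each, 93.3% were bound in both lines with that window. At the stricter q 62.1% were, against 72.7% in the main setting. With that window MHC class II genes were all bound in both lines (12), as were 13 of 14 myeloid genes, beside 83.7% of all genes. The cause of these shifts was not tested. Absence from a list means that no region passed the caller's threshold in 1 library, not that POU2AF1 was absent.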
